A study of Mus musculus with 21 samples.

Results

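The Lrrtm genes (Lrrtm1 to Lrrtm4) and the Slitrk genes (Slitrk1 to Slitrk6) encode leucine-rich repeat membrane proteins that organise synapses. The 10 genes were taken by symbol from the 55400 genes of the count and FPKM tables, and all 10 were found in all 21 RNA-seq libraries. The libraries came from wild-type C57BL/6 mouse embryonic stem cells, expanded on mouse embryonic fibroblasts and differentiated as embryoid bodies. All cultures received 1 µM retinoic acid and 0.5 µM of the Sonic Hedgehog agonist SAG from day 2. For the hypaxial motor column, those kept past day 4 then received 5 µM DAPT, a Notch pathway inhibitor, and at day 5 they were moved to the base medium with DAPT. Stage therefore cannot be told apart from DAPT in comparisons with D4, nor from the change of medium in comparisons with D6. Untreated cultures were sampled at D4 (progenitors, pMNs), D4H8 (8 h later, pnMNs), D5 (newborn motor neurons, nbMNs) and D6 (mature motor neurons, mMNs). Cultures given GSKJ4, an inhibitor of the H3K27 demethylases Kdm6a and Kdm6b, for the day before harvest were sampled at D4H8, D5 and D6. Each of the 7 groups held 3 biological replicates. The labels give no GSKJ4 dose and no vehicle for the untreated cultures, and the libraries are of whole cultures, not of sorted cells. The paper describes the replicates of each stage as biologically independent experiments and does not state how far apart they were grown. The p-values therefore measure the spread between these libraries.

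LRRTM proteins sit in the postsynaptic membrane of excitatory synapses and bind presynaptic neurexins, and for LRRTM3 and LRRTM4 also heparan sulphate proteoglycans such as glypicans. SLITRK proteins bind the LAR-type receptor tyrosine phosphatases on the axon side, mainly PTPRS and PTPRD, and SLITRK3 is known for organising inhibitory synapses. Members of both families are expressed in neurons, and motor neurons receive both kinds of synapse on their dendrites and soma.

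Libraries held between 14982115 and 34383842 counts, with a median of 16238435, and D4H8 replicate 1 was the deepest. The second D5 GSKJ4 library had 39381 genes at 0, whereas the others had 29339 to 32805. The label of motor neuron was checked with 7 markers (Mnx1, Isl1, Isl2, Lhx3, Chat, Slc18a3 and Slc5a7), whose summed FPKM (fragments scaled by exonic length and library total) was 7.60 to 19.2 at D4, 229.5 to 274.5 at D5 and 410.4 to 470.3 at D6. Pluripotency markers stayed measurable, with a summed level of 120.6 to 284.9 FPKM at D4 and 11.2 to 90.6 FPKM at D6. Neural progenitor markers summed to 148.1 to 216.4 FPKM at D4 and 149.2 to 217.5 FPKM at D6. Of these 6 markers 4 were called lower and 1 higher from D4 to D6. Glia markers summed to 3.93 to 5.43 FPKM at D4 and 10.69 to 13.62 FPKM at D6. A summed list of 8 feeder fibroblast markers lay between 5.55 and 33.45 FPKM in all libraries. In such cultures fewer cells of a type and less RNA per cell cannot be told apart.

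The positions given here are from GENCODE M21 on GRCm38. Lrrtm1 (chr6:77242689-77257791, plus strand), Lrrtm2 (minus strand) and Lrrtm3 (chr10:63928472-64090277, minus strand) each lie inside an alpha-catenin gene on the opposite strand, Ctnna2, Ctnna1 and Ctnna3. Lrrtm1 and Lrrtm3 share no exonic base with these hosts, whereas Lrrtm2 shares 95 exonic bases with Ctnna1. Lrrtm4 (chr6:80018877-80810143, plus strand) shares 1543 exonic bases with the antisense gene Gm4409, which averaged 0.238 counts per library. Slitrk1 (chr14:108908800-108914158, minus strand), Slitrk6 (chr14:110748580-110755149, minus strand) and Slitrk5 (chr14:111675097-111683141, plus strand) follow each other on chromosome 14 at distances of 1.83 and 0.92 Mb, with 0 other protein-coding genes between them. Slitrk4 (chrX:64264885-64276996, minus strand) and Slitrk2 (chrX:66649318-66661393, plus strand) are 2.37 Mb apart with 2 protein-coding genes between them, and Slitrk3 (chr3:73047265-73057803, minus strand) stands alone. The counting strand was not stated, so reads of Lrrtm2 and of the overlapping Ctnna1 exon cannot be told apart where they overlap. For the same reason, unspliced reads of a host over exons of Lrrtm1, Lrrtm2 or Lrrtm3 cannot be told apart from reads of these genes.

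Upstream sequence of 4 of the genes is shown because all 10 genes rose together at the last step. Lrrtm3 and Slitrk3 are shown because they had lower levels in GSKJ4-treated D6 libraries once replicates were paired, and Lrrtm1 and Slitrk1 as relatives from each family that had no such call. The bases are the RefSeq windows on GRCm38.p6 before each gene's start, at most 250 bases, on the gene's strand, without bases that lie in a GENCODE exon. Lrrtm1 is chr6:77242227-77242476 (plus strand), Lrrtm3 is chr10:64090278-64090505 (minus strand), Slitrk1 is chr14:108914240-108914489 (minus strand) and Slitrk3 is chr3:73057067-73057316 (minus strand), which lies within the gene, between GENCODE exons. Capitals mark ATCAAT or its complement ATTGAT, the core that Onecut factors bind, and CAGATG, an E-box of proneural bHLH factors.
Lrrtm1: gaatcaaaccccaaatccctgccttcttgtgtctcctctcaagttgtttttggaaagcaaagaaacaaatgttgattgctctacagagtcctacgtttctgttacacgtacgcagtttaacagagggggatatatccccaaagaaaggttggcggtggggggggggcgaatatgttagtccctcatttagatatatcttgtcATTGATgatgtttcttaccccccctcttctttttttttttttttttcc
Lrrtm3: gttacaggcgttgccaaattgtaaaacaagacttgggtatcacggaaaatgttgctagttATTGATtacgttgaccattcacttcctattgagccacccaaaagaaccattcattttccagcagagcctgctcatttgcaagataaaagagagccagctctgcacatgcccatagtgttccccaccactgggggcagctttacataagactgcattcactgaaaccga
Slitrk1: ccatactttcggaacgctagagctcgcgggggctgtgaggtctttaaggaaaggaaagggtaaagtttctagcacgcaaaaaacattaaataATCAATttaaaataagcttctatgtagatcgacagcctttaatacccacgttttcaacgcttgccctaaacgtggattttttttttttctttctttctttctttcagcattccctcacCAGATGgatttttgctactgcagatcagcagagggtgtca
Slitrk3: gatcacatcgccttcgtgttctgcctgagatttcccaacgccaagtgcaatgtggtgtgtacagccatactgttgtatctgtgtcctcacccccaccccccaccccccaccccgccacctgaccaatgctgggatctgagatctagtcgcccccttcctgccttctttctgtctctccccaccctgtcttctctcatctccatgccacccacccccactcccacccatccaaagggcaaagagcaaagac

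RefSeq windows were found for 8 of the 10 genes, and 2 (Lrrtm2 and Slitrk4) had none in the table. ATCAAT, searched on both strands, was in the full 250 bases before the RefSeq start of 4 genes (Lrrtm1, Lrrtm3, Slitrk1 and Slitrk2). The 8 genes have 10 windows, of which 4 held ATCAAT, and 6.72% of all 32851 RefSeq windows, each searched over 250 bases, held it. Counted from the RefSeq start, which can differ from the GENCODE start, it began 48 bases upstream for Lrrtm1, 190 for Lrrtm3, 158 for Slitrk1 and 108 for Slitrk2. CAGATG, searched as CAGATG and CATCTG, was in 1 of the genes (Slitrk1, 40 bases before its RefSeq start) and in 14.4% of all windows. TAATTA, a site for LIM homeodomain factors, was in 0 of the genes and in 4.84% of all windows. The printed sequences with ATCAAT or its complement hold 42.0% (Lrrtm1), 44.7% (Lrrtm3) and 40.4% (Slitrk1) G or C, and that of Slitrk3, without it, 57.6%. The part of base composition in these matches was not tested. The motifs were chosen after these sequences were seen, and a match is a description of letters.

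All 10 genes were highest at D6. The 10 FPKM values summed to 2.23 ± 0.177 at D4, 2.17 ± 0.397 at D4H8, 5.51 ± 0.338 at D5 and 30.0 ± 5.34 at D6 (mean ± SD, n = 3 libraries each). At D4, Slitrk5 alone was above 1 FPKM, at 1.53 ± 0.148. At D6 the order of levels per length was Slitrk5 (8.61 ± 0.797 FPKM), Slitrk1 (4.86 ± 1.66), Lrrtm3 (4.69 ± 0.936), Lrrtm2 (4.48 ± 0.613), Slitrk3 (2.99 ± 1.11), Lrrtm1 (1.44 ± 0.152), Lrrtm4 (1.15 ± 0.176), Slitrk4 (0.963 ± 0.297), Slitrk6 (0.457 ± 0.0153) and Slitrk2 (0.383 ± 0.0473). Neighbours in that order whose library values overlapped were Slitrk1 with Lrrtm3, Lrrtm3 with Lrrtm2, Lrrtm2 with Slitrk3, and Lrrtm4 with Slitrk4.

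**Figure D1:**
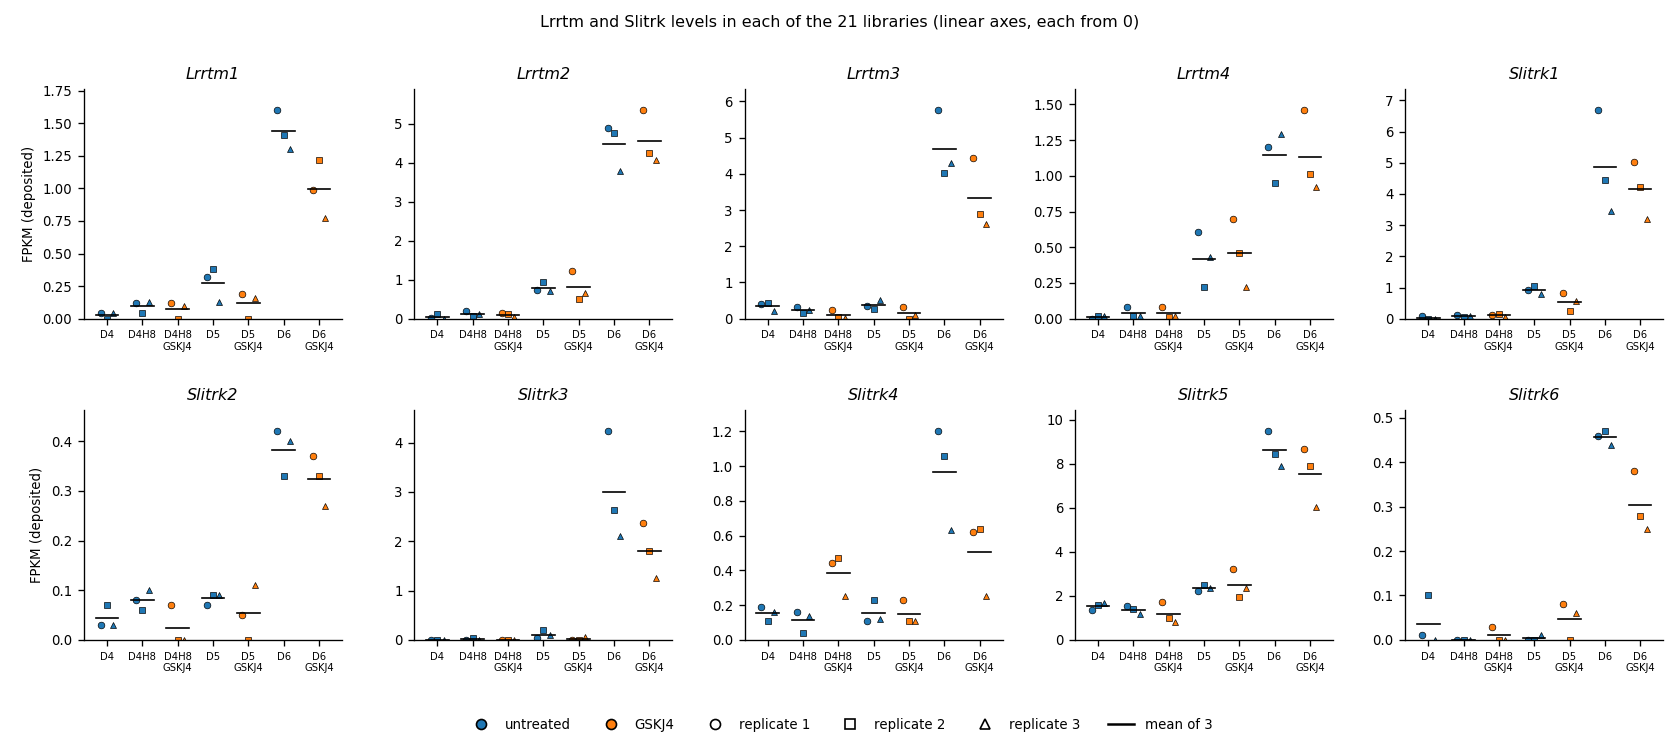
FPKM of each Lrrtm and Slitrk gene (linear axes from 0, each with its own range) in the 21 libraries, by group, with untreated libraries in blue, GSKJ4-treated ones in orange, a symbol per replicate number and a bar at the mean of 3. In each panel the 3 untreated D6 libraries lie above all untreated libraries of the earlier stages.

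For changes between stages, the counts of the 12 untreated libraries were fitted together in edgeR (quasi-likelihood test, Benjamini-Hochberg adjustment over 17519 genes). All 10 genes passed the filter on low counts. Lrrtm1, Slitrk3 and Slitrk6 passed it only through the D6 libraries, so that a difference at D6 follows for them from the filter, and the counts of genes given here are a description.

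In the first 8 h, from D4 to D4H8, 0 of the 10 genes passed an adjusted p of 0.05 in edgeR, where 4.38% of all genes did. At an unadjusted p under 0.05 the number was 4, beside 16.5% of all genes, and DESeq2 called 1 gene, Lrrtm2, and 6.78% of all genes. The counts were small: Slitrk3 was at 0 in all D4 libraries and at 0, 2 and 0 counts at D4H8, and Slitrk6 was at 1, 7 and 0 counts at D4 and at 0 in all D4H8 libraries. The 3 libraries of Lrrtm4 held 0, 2 and 2 counts at D4 and 16, 2 and 2 at D4H8, and Lrrtm1 held 3, 0 and 2 and then 13, 2 and 6. Slitrk5, with 164, 141 and 142 counts at D4 and 279, 120 and 93 at D4H8, had a log2 fold change of -0.19 ± 0.16 (SE, adjusted p = 0.582). Log2 fold changes were 1.52 ± 0.64 for Lrrtm2 (adjusted p = 0.247), 1.75 ± 0.80 for Slitrk1 (0.292) and 0.77 ± 0.43 for Slitrk2 (0.393), and -0.58 ± 0.38 for Lrrtm3 (0.471) and -0.46 ± 0.49 for Slitrk4 (0.674). Leaving out D4 replicate 1 gave a call for Slitrk1 (adjusted p = 0.0353), and leaving out D4 replicate 2 gave one for Lrrtm2 (adjusted p = 0.0268).

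From D4H8 to D5, 5 of the 10 genes rose (Lrrtm2, Lrrtm4, Slitrk1, Slitrk3 and Slitrk5) and 0 fell, where 17.2% of all genes were called higher. In each of the 5 the D5 libraries lay above all D4H8 libraries, as in 22.5% of all genes. All 7 motor neuron markers rose at this step too. Slitrk1 went from 24, 4 and 7 counts to 76, 94 and 67, a log2 fold change of 3.26 ± 0.53 (adjusted p = 0.000418). Lrrtm4, which binds glypicans, went from 16, 2 and 2 counts to 58, 23 and 42 (3.18 ± 0.55, adjusted p = 0.00071), and without D4H8 replicate 1 its change was 4.29. Lrrtm2, a neurexin ligand, went from 39, 7 and 11 counts to 68, 94 and 67 (2.54 ± 0.48, adjusted p = 0.00134). Slitrk5 rose by less, from 1.54, 1.40 and 1.18 FPKM to 2.23, 2.51 and 2.37 FPKM (0.78 ± 0.16, adjusted p = 0.00231). Slitrk3 held 3, 15 and 7 counts at D5 against 2 in all at D4H8, a ratio of 17.1 (exact 95% counting interval 4.28 to 149.3, counting error only). Its call (adjusted p = 0.0128) was lost without D4H8 replicate 1 (0.0683) or without D5 replicate 2 (0.0635).

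The other 5 genes did not pass the test at this step. Lrrtm3 was at 0.32, 0.16 and 0.24 FPKM at D4H8 and at 0.35, 0.28 and 0.51 FPKM at D5 (log2 fold change 0.61 ± 0.38, adjusted p = 0.263), so its D5 libraries overlapped those of D4H8. Slitrk4 also overlapped, with 47, 5 and 18 counts and then 15, 34 and 16 (0.43 ± 0.50, adjusted p = 0.566), and Slitrk2 had 0.10 ± 0.40 (adjusted p = 0.886). Lrrtm1, with 15, 19 and 6 counts at D5, had 1.40 ± 0.56 (adjusted p = 0.0798), and without D5 replicate 3 it was called (0.0398). Slitrk6 was at 0, 0 and 1 counts at D5, at the floor of 3 counts like D4H8, and no fold is given.

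At the last step, from D5 to D6, all 10 genes rose, where 19.2% of all genes were called higher, and in each of the 10 the 3 D6 libraries lay above the 3 D5 libraries, as in 23.5% of all genes. The median log2 fold change of the 10 was 2.57, and that of all 17519 genes was -0.02. Lrrtm1, Slitrk3 and Slitrk6 entered the test only through D6, so their rise follows from the filter and no adjusted p is given. The other 7 genes did not need the D6 libraries to be tested.

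Among the Lrrtm genes, Lrrtm3, a neurexin and proteoglycan ligand, had the largest log2 fold change of the 4 at this step and passed no test before it. It was at 0.41, 0.44 and 0.20 FPKM at D4, at 0.35, 0.28 and 0.51 FPKM at D5 and at 5.76, 4.02 and 4.29 FPKM at D6, so that the D5 mean was 8.10% of the D6 mean. The log2 fold change from D5 was 3.74 ± 0.36 (adjusted p = 6.58e-06), and that from D4 was 3.77 ± 0.36 (6.45e-07). Lrrtm2 was at 0.73, 0.94 and 0.71 FPKM at D5 and at 4.90, 4.77 and 3.78 FPKM at D6 (2.62 ± 0.42, adjusted p = 0.000385), and the D5 mean was 17.7% of the D6 mean. Lrrtm1, likewise a neurexin ligand, was at 0.32, 0.38 and 0.13 FPKM and then at 1.60, 1.41 and 1.30 FPKM (2.49 ± 0.49). Lrrtm4 had the smallest change of the 10, from 0.61, 0.22 and 0.43 FPKM to 1.20, 0.95 and 1.29 FPKM (1.54 ± 0.45, adjusted p = 0.0171), and the D5 mean was already 36.6% of the D6 mean. Its call was lost without D5 replicate 2 (adjusted p = 0.0768) or D5 replicate 3 (0.0538). Lrrtm1 held 5 counts in all at D4 and 209 at D6, a ratio of 48.9 (exact 95% counting interval 20.6 to 152.1), and Lrrtm4 held 4 and 337, a ratio of 98.5 (38.1 to 363.7).

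Among the Slitrk genes, Slitrk3, the family member of inhibitory synapses, had the lowest mean of the 6 at D4. There Slitrk1 and Slitrk6 also had libraries at 0. Slitrk3 was at 0 in all 3 D4 libraries, at 0.04, 0.19 and 0.09 FPKM at D5 and at 4.23, 2.64 and 2.1 FPKM at D6. The D5 mean was 3.57% of the D6 mean, and the log2 fold change from D5 was 4.92 ± 0.56, or 5.59 without D5 replicate 2. Against D4, with a floor of 3 counts in each library, D6 was at least 88.4-fold higher. Slitrk1 was at 0.92, 1.05 and 0.79 FPKM at D5 and at 6.69, 4.44 and 3.44 FPKM at D6 (2.52 ± 0.44, adjusted p = 0.000676), with replicate 1 highest. Slitrk5, the most abundant, went from 2.23, 2.51 and 2.37 FPKM to 9.47, 8.45 and 7.90 FPKM (1.98 ± 0.16, adjusted p = 1.64e-06), and the D5 mean was 27.5% of the D6 mean. Slitrk4 was at 0.11, 0.23 and 0.12 FPKM at D5 and at 1.20, 1.06 and 0.63 FPKM at D6 (2.76 ± 0.47, adjusted p = 0.000598). The scarcest genes moved too. Slitrk2 went from 0.07, 0.09 and 0.09 FPKM to 0.42, 0.33 and 0.40 FPKM (2.28 ± 0.38, adjusted p = 0.000511), and Slitrk6 went from 1 count in all to 32, 32 and 29 counts, a ratio of 92.8 with an exact 95% counting interval of 16.3 to 3706.

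**Figure D2:**
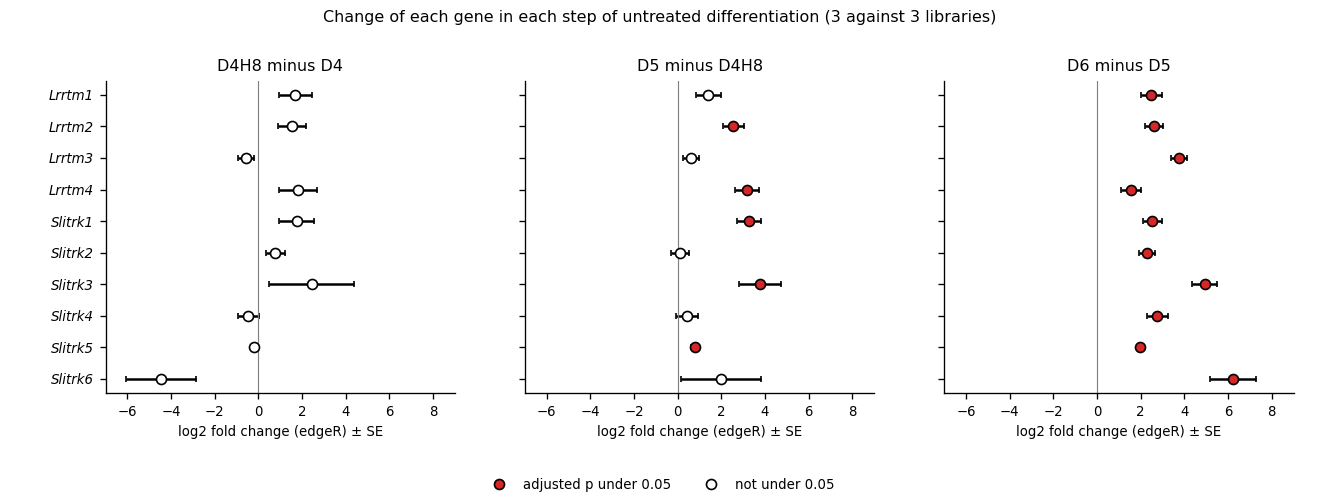
Log2 fold change ± SE from edgeR (x axis) of each gene (rows) for the 3 steps of untreated differentiation, with filled points for an adjusted p under 0.05. At D6 minus D5 all 10 points are filled and lie between 1.54 and 6.23, and at D4H8 minus D4 none is filled. Lrrtm1, Slitrk3 and Slitrk6 were tested only through their D6 libraries, so their filled points at D6 minus D5 follow from the filter. Fitted values of Slitrk3 and Slitrk6 against groups near 0 depend on the prior count.

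From D4 to D6 the 10 genes were all called higher, as were 32.9% of all genes, with a median log2 fold change of 4.67 beside -0.04 over all genes. For Lrrtm1, Slitrk3 and Slitrk6 this too follows from the filter. The changes were 2.56 ± 0.16 for Slitrk5, 2.73 ± 0.47 for Slitrk4, 3.15 ± 0.41 for Slitrk2 and 3.74 ± 0.79 for Slitrk6. They were larger for Lrrtm2 (6.67 ± 0.57) and Slitrk1 (7.53 ± 0.64), which held at most 12 and 8 counts in a D4 library. These sizes rest on single libraries, as Lrrtm2 had 8.38 without D4 replicate 2, Slitrk6 had 5.95 without D4 replicate 2, and Slitrk1 had 11.91 without D4 replicate 1, where its other D4 libraries were at 0 and the value depends on the prior count. All 3 remained called.

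The rise at D6 was set beside markers of neurons as a whole. A sum of 7 neuron markers (Tubb3, Map2, Elavl3, Elavl4, Stmn2, Snap25 and Syt1) was 1249 to 1409 FPKM at D5 and 1785 to 2056 FPKM at D6. The 10 genes together were 0.410% ± 0.0536 of that sum at D5 and 1.58% ± 0.160 at D6, with no overlap between the libraries. Relative to the sum of the motor neuron markers they were 2.26% ± 0.312 at D5 and 6.65% ± 0.862 at D6. Of the motor neuron markers 5 of 7 rose from D5 to D6 and 1 fell, and of the neuron markers 5 of 7 rose. Interneuron markers summed to 2.16 to 3.08 FPKM at D5 and 4.33 to 5.40 FPKM at D6, and their part in the result was not tested.

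**Figure D3:**
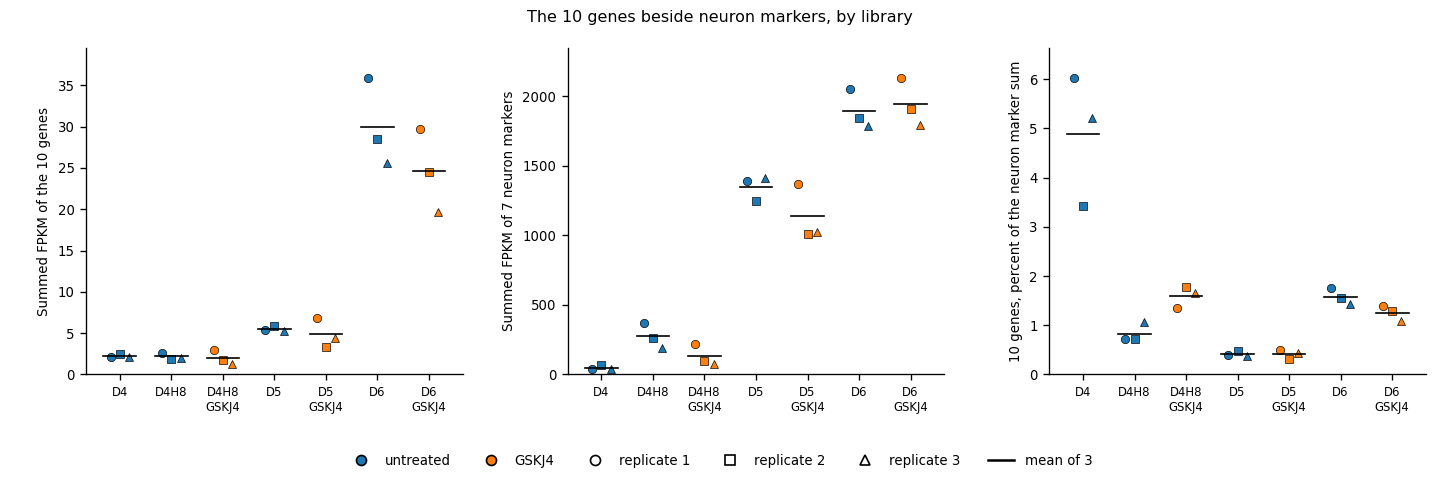
Summed FPKM of the 10 genes, summed FPKM of 7 neuron markers, and the first as a percent of the second, in each of the 21 libraries by group (linear axes from 0, bars at means of 3). The percent is 0.373 to 0.472 in the untreated D5 libraries and 1.43 to 1.75 in the untreated D6 libraries, and D4 is high where the marker sum is low.

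The alpha-catenin genes that hold Lrrtm1, Lrrtm2 and Lrrtm3 did not share a course. Ctnna2, which is neuronal, rose with Lrrtm1, from 0.41, 0.55 and 0.25 FPKM at D4 to 21.1, 13.8 and 14.2 FPKM at D5 and 67.0, 46.7 and 48.4 FPKM at D6 (D6 minus D5 1.84 ± 0.26, adjusted p = 0.00014). Ctnna2 had been called higher at each step (1.61 ± 0.31, adjusted p = 0.00816, from D4 to D4H8). Of the 3 steps Lrrtm1 was called only at the last, where its call follows from the filter. The difference between the 2 genes was not tested. Without D4H8 replicate 1 the first call of Ctnna2 was lost (adjusted p = 0.0581). The FPKM of Lrrtm1 was 0.913% to 2.75% of that of Ctnna2 at D5 and 2.39% to 3.02% at D6. The part of unspliced Ctnna2 reads in the counts of Lrrtm1 was not tested. The widespread Ctnna1 fell while Lrrtm2 rose, from 54.2, 67.6 and 73.4 FPKM at D4 to 13.96, 26.0 and 34.2 FPKM at D6 (D6 minus D5 -1.05 ± 0.22, adjusted p = 0.00228). The level of Lrrtm2 went from at most 0.177% of that of Ctnna1 at D4 to between 11.04% and 35.1% at D6. Ctnna3 held at most 9 counts in any library and did not pass the filter, while Lrrtm3 held 400, 272 and 286 counts at D6. Neither Ctnna1 nor Ctnna2 was called in GSKJ4-treated libraries at any stage.

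**Figure D4:**
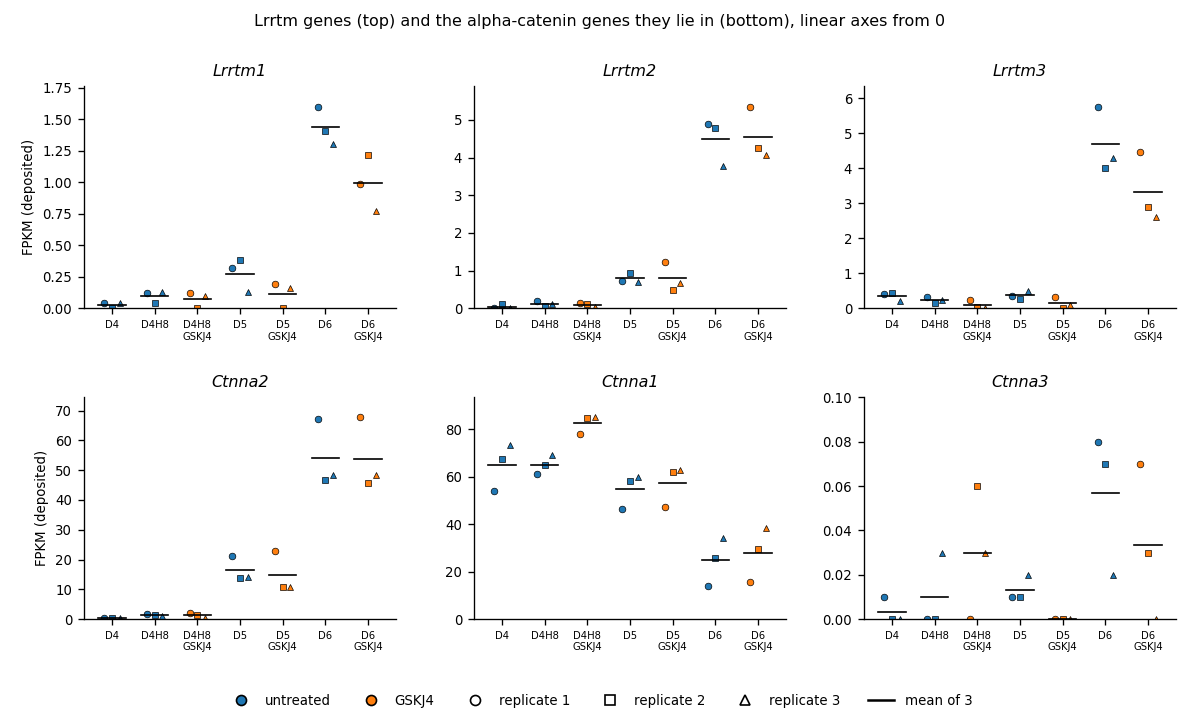
FPKM in the 21 libraries (linear axes from 0) of Lrrtm1, Lrrtm2 and Lrrtm3 in the top row and of Ctnna2, Ctnna1 and Ctnna3, the genes they lie in, in the bottom row, with bars at means of 3. Ctnna2 and Lrrtm1 are both highest at D6, Ctnna1 is lowest there, and Ctnna3 is at or below 0.08 FPKM in every library.

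GSKJ4 was used to ask which genes depend on the demethylase activity at each stage. At D4H8, 5 of the 10 genes passed the filter and 0 were called by edgeR, where 3.96% of the 16269 tested genes were. Slitrk4 was the 1 of the 5 at an unadjusted p under 0.05, where 25.1% of all genes were, and the 1 gene called by DESeq2 (adjusted p = 0.0229), which called 13.6% of all genes. It held 47, 5 and 18 counts in untreated and 65, 70 and 35 counts in treated libraries, or 0.16, 0.04 and 0.14 against 0.44, 0.47 and 0.25 FPKM, with no overlap, as in 16.1% of all genes. Its log2 fold change was 1.76 ± 0.55 (adjusted p = 0.0916). Slitrk4 passed the filter here only through its treated libraries, as the untreated replicate 2, at 5 counts, was under the minimum of 10. A higher level in treated libraries therefore follows in part from the filter, and these values are a description. Lrrtm3 held 47, 11 and 15 counts against 17, 3 and 1 (-1.34 ± 0.78, adjusted p = 0.315). Slitrk5 (-0.29 ± 0.34), Lrrtm2 (-0.38 ± 0.58) and Slitrk1 (0.16 ± 0.67) had adjusted p of 0.619, 0.714 and 0.9. The untested genes (Lrrtm1, Lrrtm4, Slitrk2, Slitrk3 and Slitrk6) held at most 22 counts in these libraries. At this stage the motor neuron markers summed to 55.3 to 60.2 FPKM in untreated and 11.7 to 27.2 FPKM in treated libraries, and neural progenitor markers to 224.5 to 311.2 and 58.2 to 117.4 FPKM. Their part in these values was not tested.

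At D5, 7 of the 10 genes passed the filter and 0 were called by edgeR or DESeq2. Of the 16309 tested genes 0.00613% were called by edgeR, and DESeq2 called 73 genes. In edgeR 0 of the 7 had an unadjusted p under 0.05, beside 4.70% of all genes. The treated libraries spread widely. Lrrtm3 held 23, 20 and 34 counts in untreated and 26, 0 and 7 counts in treated libraries (-1.40 ± 1.15, adjusted p = 0.976), and Slitrk1 held 76, 94 and 67 against 84, 20 and 48 (-0.79 ± 0.52, adjusted p = 0.976). The second treated library, the one with the most genes at 0, held 0 counts of 5 of the 10 genes. Without it the log2 fold changes were -0.82 for Lrrtm3 and -0.42 for Slitrk1, and 0 of the 7 genes were called. Slitrk5, the best counted, was at 2.23, 2.51 and 2.37 FPKM against 3.22, 1.96 and 2.34 FPKM (0.05 ± 0.26, adjusted p = 0.99). Lrrtm2, Lrrtm4, Slitrk2 and Slitrk4 had log2 fold changes between -0.70 and 0.09, and the 3 untested genes (Lrrtm1, Slitrk3 and Slitrk6) held at most 19 counts. Motor neuron markers summed to 142.9 to 171.8 FPKM in treated libraries against 229.5 FPKM or more in untreated ones, and their part was not tested.

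At D6, all 10 genes passed the filter, and without pairing 0 were called by edgeR or DESeq2, as were 0.0% of the 16301 tested genes by edgeR (222 genes had an unadjusted p under 0.05, and DESeq2 called 1). Of the 10 genes 0 had an unadjusted p under 0.05 in edgeR, beside 1.36% of all genes, and 2 in DESeq2, beside 1.19%. Replicates carrying the same number deviated together, with correlations of 0.429 to 0.754 over genes for the 3 numbers. The fit with the replicate number as a block called 3 of the 10 lower (Lrrtm3, Slitrk3 and Slitrk4) and 0 higher, where 1.28% of all genes were called lower and 0.294% higher. In 8 of the 10 the treated library was below the untreated one of the same number in all 3 pairs, as in 19.6% of all genes. The exceptions were Lrrtm2 and Lrrtm4.

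Slitrk4 had the largest log2 fold change of the 10. Its untreated D6 libraries were at 1.20, 1.06 and 0.63 FPKM (replicates 1, 2 and 3) and the treated ones at 0.62, 0.64 and 0.25 FPKM, so the groups overlapped while the treated library of each pair was lower by 49.1%, 40.1% and 60.1% in CPM (counts scaled to library size). The log2 fold change was -0.93 ± 0.42 without the block (adjusted p = 1) and -0.96 ± 0.18 with it (adjusted p = 0.00505). Slitrk3 was at 4.23, 2.64 and 2.1 FPKM against 2.36, 1.80 and 1.25 FPKM, lower by 45.1%, 32.9% and 41.4% in its pairs, with -0.74 ± 0.36 without (adjusted p = 1) and -0.73 ± 0.13 with the block (adjusted p = 0.00311). Lrrtm3 was at 5.76, 4.02 and 4.29 FPKM against 4.45, 2.9 and 2.62 FPKM, lower by 24.1%, 29.1% and 39.7%, with -0.50 ± 0.27 (adjusted p = 1) and -0.52 ± 0.11 (adjusted p = 0.0123). The treated D6 libraries of all 10 genes lay above all untreated D5 libraries, as in 20.4% of all genes. Lrrtm1, Slitrk3 and Slitrk6 passed the filter of the stages only through D6, so low D5 levels follow for them from that filter. DESeq2 with the block gave adjusted p of 0.0208 for Slitrk4, 0.018 for Slitrk3 and 0.0931 for Lrrtm3, and called 0.736% of all genes lower. With the block, Slitrk3 lost its call without the untreated replicate 1 (adjusted p = 0.052), and Lrrtm3 lost it without the untreated replicate 3 (0.0519) or the treated replicate 2 (0.0845).

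The other 7 genes were not called with the block. Slitrk5 had -0.21 ± 0.07 (adjusted p = 0.22), Slitrk1 had -0.22 ± 0.09 (0.387), Lrrtm1 had -0.55 ± 0.23 (0.353), Slitrk6 had -0.60 ± 0.34 (0.574) and Slitrk2 had -0.26 ± 0.25 (0.788). For Lrrtm1 and Slitrk6 the treated libraries lay below all untreated ones, 0.99, 1.22 and 0.77 against 1.60, 1.41 and 1.30 FPKM and 0.38, 0.28 and 0.25 against 0.46, 0.47 and 0.44 FPKM. Only 2.85% of all genes were separated in that direction, and the highest count of either gene in these libraries was 79. Lrrtm2 and Lrrtm4 were nearest to no difference, at 0.02 ± 0.09 (adjusted p = 0.97) and -0.04 ± 0.18 (0.967).

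Marker levels at D6 moved with the replicate number. Replicate 1 had a pluripotency marker sum of 11.2 FPKM untreated and 13.7 FPKM treated, against 78.7 to 101.0 FPKM in the other D6 libraries, and it also had the highest summed level of the 10 genes, 35.9 FPKM untreated and 29.7 FPKM treated. With the block, 2 of the 7 motor neuron markers were lower in treated libraries (Isl2, -0.54, and Slc5a7, -0.32), as were 2 of the 8 feeder fibroblast markers and 1 of the 5 tested interneuron markers (Slc17a6, -0.94). Of the 7 neuron markers 0 were called with the block, and their sum was 1785 to 2056 FPKM untreated and 1794 to 2134 FPKM treated. The 10 genes were 1.58% ± 0.160 of that sum untreated and 1.26% ± 0.151 treated. Interneuron markers summed to 4.33 to 5.40 FPKM untreated and 2.86 to 4.2 FPKM treated, and their part in the result was not tested.

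**Figure D5:**
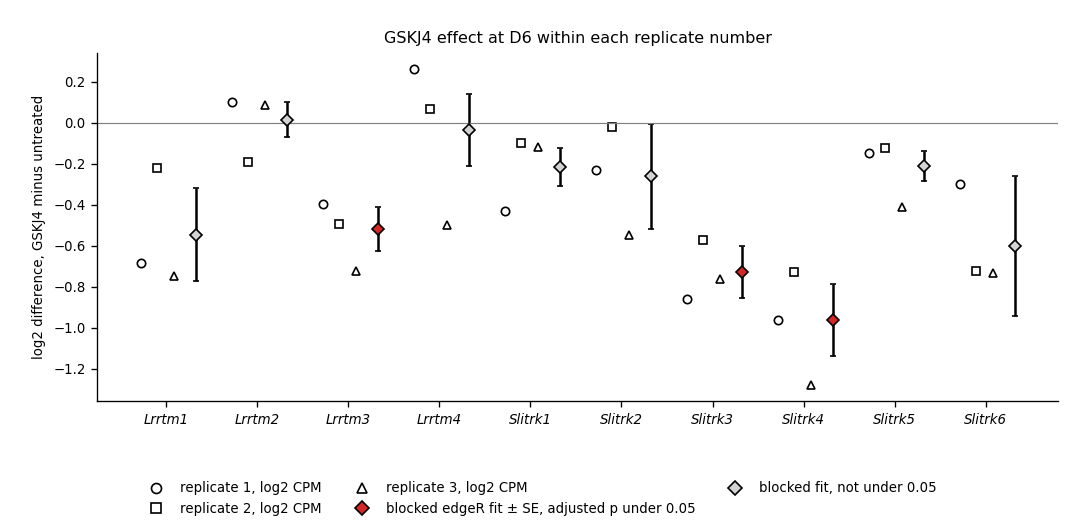
Log2 CPM of the GSKJ4-treated minus the untreated D6 library of the same replicate number (open symbols) for each gene, and the fold change ± SE of the edgeR fit with the replicate block (diamonds, red where the adjusted p is under 0.05). The red diamonds are Lrrtm3, Slitrk3 and Slitrk4, and the open symbols of Lrrtm2 and Lrrtm4 lie on both sides of 0.

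The GSKJ4 effects were also compared between stages, in a fit over 18 libraries. By edgeR 0 of the 10 genes differed between D5 and D4H8, between D6 and D5 or between D6 and D4H8, where 0.249%, 0.0% and 0.735% of 18103 genes did, and in each comparison 1 of the 10 had an unadjusted p under 0.05, beside 10.0%, 1.98% and 13.7% of all genes. DESeq2 called 0, 0 and 1 of the 10, and 247, 1 and 603 of all genes. Slitrk4, at 1.76 ± 0.55 at D4H8 and -0.93 ± 0.42 at D6, differed by -2.68 ± 0.77 between them (adjusted p = 0.122). This was the 1 difference that DESeq2 called (adjusted p = 0.0141, with 1.68% of all genes called lower). The edgeR fit with the block also called it (adjusted p = 0.0427, with 1.03% called lower). At D4H8 same-numbered treated and untreated libraries correlated at 0.491, 0.0904 and 0.299, and 0.0904 is under the 0.1 asked of every pair.

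Other genes of the pathway were taken from lists of known partners and relatives. Among the presynaptic binding partners, the receptor phosphatase gene Ptprd rose from D5 to D6 by a log2 fold change of 1.84 ± 0.14 (adjusted p = 1.39e-06) and the neurexin gene Nrxn2 by 1.64 ± 0.16 (6.46e-06). Ptprs, which was at 42.3 ± 6.51 FPKM at D5 and 54.5 ± 8.75 FPKM at D6, rose by 0.48 ± 0.18 (adjusted p = 0.047). With the block, Ptprd was called lower in GSKJ4-treated D6 libraries (-0.55 ± 0.05, adjusted p = 2.79e-06).

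Of 20 tested genes for other leucine-rich repeat adhesion proteins, 3 rose from D4 to D4H8, 11 rose and 1 fell from D4H8 to D5, and 15 rose and 0 fell from D5 to D6, with a median log2 fold change of 1.24 at the last step. Of all genes 4.38% were called in either direction at the first step. At the second and the last step 17.2% and 19.2% were called higher. Lingo1 (3.89 ± 0.23, adjusted p = 2.71e-07), the neurotrophin receptor Ntrk3 (2.86 ± 0.24, 2.47e-06) and Flrt2 (2.65 ± 0.26, 8.37e-06) had the lowest adjusted p. With the block, 3 of 19 adhesion genes were lower in treated D6 libraries, where 1.28% of all genes were. They were Flrt2 (-0.76 ± 0.10, adjusted p = 0.000125), Lingo1 (-0.29 ± 0.06, 0.0134) and Lrfn5 (-0.67 ± 0.17, 0.049). Of 11 postsynaptic scaffold genes 8 rose and 1 fell from D5 to D6. They include Shank1 (2.38 ± 0.25, adjusted p = 1.47e-05), a scaffold of excitatory synapses, and Gphn (1.16 ± 0.15, 6.16e-05), the gephyrin scaffold of inhibitory synapses. Gphn was the 1 scaffold lower in treated D6 libraries with the block (-0.26 ± 0.06, adjusted p = 0.0267). Of 8 other glypicans and syndecans 4 rose and 2 fell at that step, Sdc3 having 2.00 ± 0.17 (adjusted p = 3.13e-06), and 0 were called in treated D6 libraries. In the GSKJ4 comparison at D4H8, the partner gene Gpc4 was called higher (1.42), and 1 of the 8 other glypicans and syndecans (Gpc2, -1.85) and 1 of 15 adhesion genes (Lrrn1, -1.43) were called lower by edgeR. Of all genes 3.96% were called there in either direction. Of the glypican, adhesion and scaffold lists 0 genes were called by edgeR at D5, and 0 at D6 without the block.

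Across the 21 libraries the log2 CPM of the 10 genes were positively correlated in every pair, from Pearson's r = 0.504 (Lrrtm4 with Slitrk4) to 0.964 (Lrrtm2 with Slitrk1). The points share stage, treatment and replicate. Among genes with a mean of at least 100 counts, the genes most like each of the 4 members with a mean of at least 1 FPKM were Phactr3 (r = 0.986), Rab3c (0.985) and Dpf3 (0.983) for Lrrtm2, Trim32 (0.956), Tox (0.932) and Prkar2b (0.931) for Lrrtm3, Celf4 (0.985), Scn3b (0.984) and Ptpro (0.981) for Slitrk1, and Ctnnd2 (0.981), Agap2 (0.978) and Tub (0.976) for Slitrk5.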

How the data were processed

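RNA-seq of 21 libraries was used. The authors trimmed reads with Fastp, aligned them to mm10 with Hisat2, counted them with HTSeq-count and deposited raw counts per gene. The deposited FPKM values were made by the authors from these counts and exonic gene lengths, and FPKM recomputed from the counts differed by at most 0.005. Strand of counting was not given in the sources used here. Groups and replicate numbers came from the labels. Total counts were 14982115 to 34383842 per library, and intervals cover counting error only. No pair of libraries of a group agreed within sampling noise (mean chi-square per gene at least 6.94).

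Counts were tested with edgeR 4.0.16 in R 4.3.3 (TMM, quasi-likelihood, filterByExpr with a minimum count of 10, Benjamini-Hochberg adjustment over all genes tested, threshold 0.05), with untreated stages in 1 fit of 12 libraries and GSKJ4 contrasts in fits of 6. Standard errors are the fold change divided by the root of its F. Gene groups at 3 or fewer counts in each library are given as bounds or count ratios. DESeq2 1.42.0, RLE and upper-quartile scaling, other filters, a replicate block, 1 fit over 21 libraries and leaving out each library were alternatives, and DESeq2 and other settings with the block at D6 were added after seeing the data. The block is printed at D6 because every same-numbered pair of treated and untreated libraries correlated above 0.1 (0.429 to 0.754). The pairing comes from the replicate numbers, and for D5 against D4H8 (0.152 to 0.327) and D6 against D5 (0.165 to 0.329), which also paired, the block changed no call of the 10 genes. Similar genes were the 3 with the highest Pearson's r of log2 CPM (prior count 2). All 10 genes are named in each comparison of stages and of GSKJ4 with untreated libraries. In the differences of the GSKJ4 effect between stages only Slitrk4 is named. Of the other lists at most the 4 genes with the lowest adjusted p are named. Of the list of presynaptic partners not every gene is reported here, and no counts are given for it. Steps were tested on simulated data. Symbols and positions are from GENCODE M21, upstream sequences from RefSeq on GRCm38.p6. The genes and lists were chosen with earlier results of these data known.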

Additional observations from a re-analysis of the deposited data

How the results depend on the processing

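Over 1811 single-gene values of the 10 genes under the alternatives, 1768 kept their side of the threshold, 6 lost and 37 gained a call, and no called value changed sign. Counts of called genes moved by over 1.5 times as follows, first for the 10 genes and then for all genes, and the cause was not tested beyond fewer genes entering under a stricter filter. From D4 to D4H8 the main counts were 0 and 767. DESeq2 gave 1 and 1188, no filter on low counts gave 3 and 1319, and 1 fit over all 21 libraries gave 422 for all genes. From D4H8 to D5 (5 and 4861), a minimum of 10 counts in every library left 1 of the 10 genes, and the fit over 21 libraries gave 3218 for all genes. That minimum left 2 of the 10 from D5 to D6 and 2 from D4 to D6, where the main counts were 10, and the fit over 21 libraries lost Lrrtm4 (adjusted p = 0.0596) and Slitrk2 (0.0574) from D5 to D6. For GSKJ4 at D4H8 (0 and 644), DESeq2, no filter, the replicate block and the fit over 21 libraries each called 1 of the 10, Slitrk4, and 2215, 2287, 2274 and 2048 of all genes. At D5 (0 and 1), they called 73, 128, 4 and 9 of all genes. At D6 (0 and 0), DESeq2 called 1 of all genes. There the replicate block called 3 and 257, DESeq2 with the block 2 and 139, and the block with upper-quartile scaling 3 and 270. With the block and 1 library left out, the counts were 2 and 255, 3 and 309, and 2 and 407 without the untreated replicates 1, 2 and 3, and 3 and 267, 2 and 153, and 3 and 410 without the treated ones. For the difference of the GSKJ4 effect between D5 and D4H8 (0 and 45), DESeq2, no filter and the block called 247, 351 and 185 of all genes. Between D6 and D5 (0 and 0), DESeq2 called 1 and no filter 13. Between D6 and D4H8 (0 and 133), DESeq2, no filter and the block each called 1 of the 10, Slitrk4, and 603, 626 and 491 of all genes, and the minimum of 10 counts gave 208. Leaving out each library in turn gave 0 to 1, 4 to 6, 9 to 10 and 10 to 10 of the 10 genes for the stages and 0 in the GSKJ4 comparisons without the block. For all genes it gave 350 to 912, 3648 to 5219, 4151 to 6237 and 10141 to 11671 for the stages, 43 to 1746, 1 to 6 and 0 to 0 for GSKJ4 at D4H8, D5 and D6, and 16 to 172, 0 to 1 and 40 to 284 for the differences. The rule of every same-numbered pair above 0.1 was not met for D4H8 with D4, D6 with D4, or treated with untreated libraries at D4H8 and D5. The lowest correlations there were 0.0815, 0.0231, 0.0904 and 0.0591, and the highest were 0.298, 0.107, 0.491 and 0.254. Apart from Slitrk4 at D4H8 the block changed no call of the 10 genes in these comparisons. Under upper-quartile scaling, the all-gene median log2 fold change went from -0.02 to -0.10 for D6 against D5 and from -0.04 to -0.19 for D6 against D4, with no change of direction among the 10. Depth limits Slitrk6 and Slitrk3 before D6, where most libraries held 3 or fewer counts.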
